A study of Mus musculus with 27 samples.

Results

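The respiratory chain genes examined here were the protein-coding genes whose symbols begin with Ndufa, Ndufb, Ndufc, Ndufs, Ndufv, Uqcr, Cox4 to Cox8 or Atp5, or are Sdha, Sdhb, Sdhc or Sdhd, together with the protein-coding genes of the mitochondrial genome. This rule found 107 of the 54532 genes in the table, 94 encoded in the nucleus and 13 in the mitochondrion. RNA had been sequenced from liver of wild-type C57/BL6J mice in 27 libraries: 5 after sham operation (sham), 7 taken 24 h after removal of 70% of the liver (PHx24), 4 taken at 24 h from mice given etomoxir (PHx24_ETO), 7 taken at 48 h (PHx48) and 4 taken at 48 h from mice given etomoxir (PHx48_ETO). Etomoxir inhibits the carnitine palmitoyltransferase that lets long-chain fatty acids into mitochondria. It was injected intraperitoneally, 12.5 mg/kg, 4 h ahead of resection, and the 48 h mice received a further dose 24 h after resection. The labels give no time for the sham libraries, no age and no vehicle for the mice without etomoxir. They do not say whether the libraries of a group are separate animals, so a p-value covers the library-to-library spread, which may be technical. Whole liver was sequenced, and fewer cells of a type and less RNA per cell cannot be told apart.

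The respiratory chain sits in the inner mitochondrial membrane. Complex I takes electrons from NADH and complex II takes them from succinate, complex III passes them from ubiquinol to cytochrome c, and complex IV hands them to oxygen. Complexes I, III and IV pump protons, and ATP synthase, complex V, makes ATP from the return of those protons. Subunits of complexes I, III, IV and V come from both genomes, and complex II is encoded wholly in the nucleus. In hepatocytes the chain takes the electrons that fatty acid oxidation releases and supplies ATP for glucose and urea synthesis.

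By the roles assigned to them, the nuclear genes comprised 44 of complex I (7 core subunits, 29 accessory subunits and 8 assembly factors), 4 of complex II, 8 of complex III, 20 of complex IV and 18 of complex V. Ndufa4, named after complex I but known as a complex IV subunit, was placed with complex IV together with its paralogue Ndufa4l2. The mitochondrial genome gave 7 subunits of complex I, 1 of complex III, 3 of complex IV and 2 of complex V. Levels are given as deposited FPKM, the read count per kilobase of gene and per unit of a library size that was scaled to a typical gene. Of the 107 genes, 103 had at least 1 FPKM in at least 4 libraries and were tested, among 12376 genes in all. The 4 left out were Cox4i2 (0 to 1.61 FPKM over the 27 libraries), Cox7b2 (0 to 0.218 FPKM), Cox8c and a second Atp5o entry, the last 2 with 0 FPKM in each library.

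The libraries held 14903757 to 18446372 counts. The summed FPKM of 11 hepatocyte markers was 33017 to 70129 in sham, 26242 to 33929.9 in PHx24, 29171 to 35841 in PHx24_ETO, 30439 to 43432 in PHx48 and 38496 to 50544 in PHx48_ETO, with none of the 11 at 0 in any group. The summed FPKM of 7 adipocyte markers was 968 to 1588 in sham, 31.7 to 168 in PHx24 and 115 to 498 in PHx48, that of 4 brown adipocyte markers 440.5 to 654, 69.6 to 189 and 33.5 to 214, and that of 6 sinusoidal endothelial markers 30.3 to 39.5, 21.8 to 27.2 and 15.7 to 26.1, with no marker at 0 throughout a group. Hepatocytes are also known to express Car3 and Elovl3 of the fat lists, and Ucp1, which defines brown fat, read 0 to 13 FPKM in sham. The part of these shifts in the results below was not tested. Transcripts of skeletal muscle were high in sham 1, PHx24 1 and PHx48 3, and those of exocrine pancreas in sham 2 and PHx48 3. Where leaving out these 4 libraries ends a call, the value without them is given.

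The most abundant nuclear gene of each complex, per length and over all libraries, was Ndufa2 in complex I (mean 206 FPKM), Sdhd in complex II (168 FPKM), Uqcr10 in complex III (282 FPKM), Cox6a1 in complex IV (556 FPKM) and Atp5a1 in complex V (335 FPKM). Ndufa2 is an accessory subunit, Sdhd anchors complex II in the membrane, Uqcr10 and Cox6a1 are small supernumerary subunits, and Atp5a1 is the alpha subunit of the catalytic F1 head. Ndufa2, which shares exonic bases with Tmco6 on the other strand, was not called in any comparison, with -0.16 at 24 h and -0.22 at 48 h on the log2 scale. The share of all counts held by the nuclear genes was 1.54 ± 0.121% for sham, 1.39 ± 0.1% for PHx24, 1.22 ± 0.0966% for PHx24_ETO, 1.5 ± 0.138% for PHx48 and 1.45 ± 0.157% for PHx48_ETO (mean ± SD). For the mitochondrial genes the shares were 5 ± 0.589%, 4.82 ± 0.351%, 4.45 ± 0.206%, 4.79 ± 0.53% and 5.17 ± 0.416% in the same order.

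The first question was which parts of the chain changed after resection. The count test (edgeR, quasi-likelihood, Benjamini-Hochberg adjustment over the 12376 genes, call at an adjusted p under 0.05) compares each gene with a typical gene of its library. On that scale 36 of the 90 tested nuclear genes were called lower in PHx24 than in sham, where 15.8% of all genes were, and 2 were called higher, where 19.1% of all genes were. At 48 h 37 of 90 were called lower (17% of all genes) and 3 higher (19.5% of all genes). Of the nuclear genes called lower, 28 were the same at both times, out of 36 and 37. Both comparisons use the same 5 sham libraries, so the match of the times is not independent.

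Ranges were read in the same way. In 22 nuclear genes and 1 mitochondrial gene each PHx24 library was below each sham library (8.29% of all genes), and in none was each PHx24 library above (9.41% of all genes). At 48 h the whole range was below sham in 9 nuclear and 2 mitochondrial genes (8.31% of all genes) and above it in 1, Cox6b2 (11.6% of all genes).

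The median log2 fold change of the 90 nuclear genes was -0.30 at 24 h and -0.29 at 48 h, beside 0.01 for all genes at both times, but with FPKM rescaled to the same total in each library (TPM) it was -0.09 at 24 h and 0.07 at 48 h. Under TPM the median of all genes was 0.19 at 24 h and 0.32 at 48 h, so relative to it the nuclear genes stood at -0.28 and -0.26. Relative to all genes they stood at -0.30 and -0.30 under the scaling used here and at -0.30 and -0.29 with library totals. The calls moved with the scaling. At 24 h library totals gave 18 lower and 3 higher and TPM 5 lower and 8 higher. Among all 12376 genes these gave 1255 lower and 2973 higher, and 896 lower and 3797 higher. At 48 h library totals gave 9 lower and 6 higher and TPM 2 lower and 19 higher. Among all genes these gave 986 lower and 4278 higher, and 655 lower and 5687 higher. Of the 36 genes called lower at 24 h, 5 were called lower under TPM (Cox6c, Ndufa4l2, Ndufaf1, Ndufb3 and Sdhb). None of the 36 was called higher under TPM or had a positive value. Of the 37 at 48 h, 2 were called lower under TPM (Ndufa6 and Ndufaf1), 0 were called higher and 9 had a positive value. Under each of the 3 scalings 80 of the 90 nuclear genes lay below the median of all genes at 24 h, and at 48 h 81, 81 and 77 did. The calls below are relative to a typical gene, and the TPM median is added where it has the other sign.

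**Figure D1:**
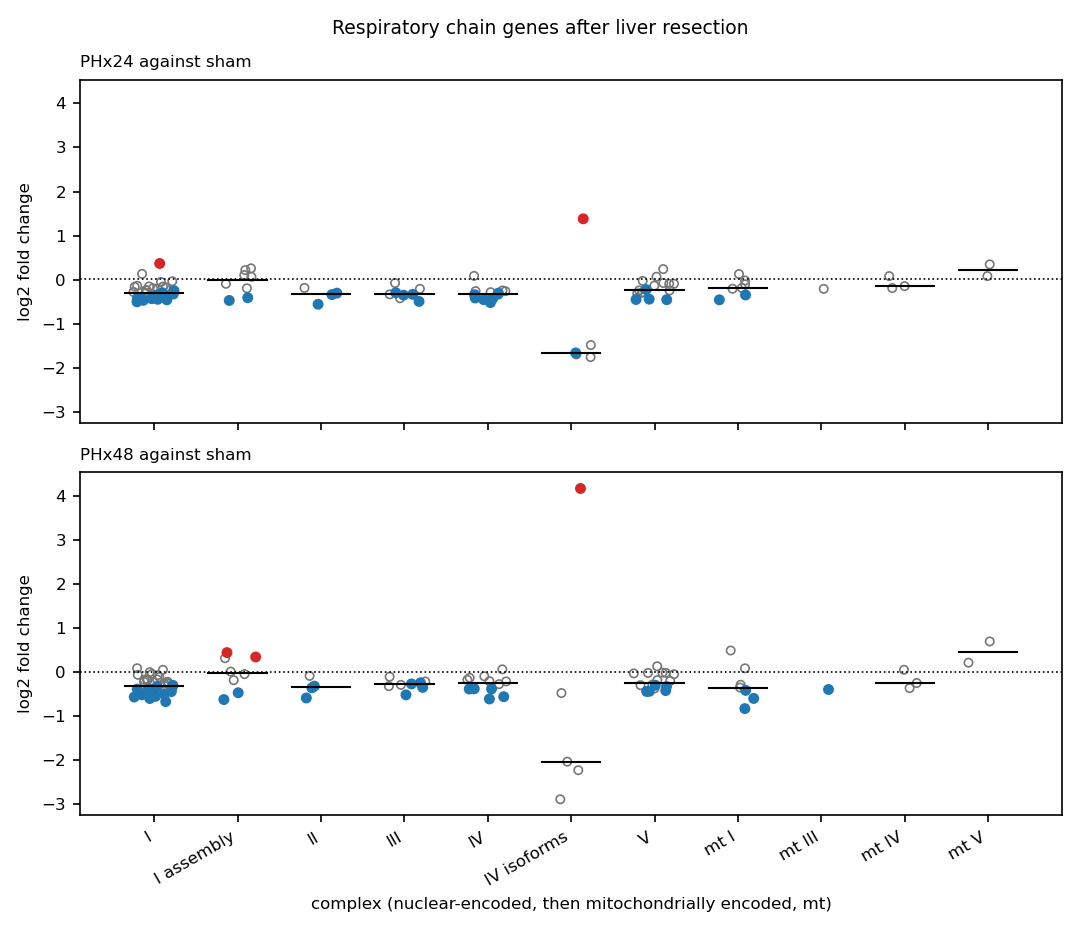
Log2 fold change (vertical axis) of each tested respiratory chain gene by complex and genome (horizontal axis), for PHx24 (n = 7) and PHx48 (n = 7) against sham (n = 5), from edgeR. Filled blue points are genes called lower, filled red points genes called higher, open points were not called, black bars are category medians and the dotted line is the median of all genes tested; Atp5s is not drawn. Nuclear subunits lie mostly below the line at both times (under TPM the 48 h medians of complexes I, II, III and V are 0.02 to 0.09), while complex I assembly factors lie on both sides of it.

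Complex II had 3 of its 4 genes called lower at both times, with medians of -0.32 at 24 h and -0.34 at 48 h (0.02 at 48 h under TPM). Sdhb encodes the iron-sulfur subunit that carries electrons from the flavin of Sdha towards ubiquinone (chr4:140961203-140979193, plus strand, GRCm38). Its level was 116, 92.2, 93.8, 118 and 147 FPKM in the 5 sham libraries, 64.3 to 83.2 FPKM in PHx24 (median 77.2) and 66 to 87.7 FPKM in PHx48 (median 70.04). The lowest sham library was above the highest PHx24 and PHx48 library. The fitted log2 fold change of Sdhb was -0.56 (SE 0.108, adjusted p = 0.000269) at 24 h and -0.59 (SE 0.108, adjusted p = 0.00013) at 48 h. The 24 h call held in each of the alternatives run, and the 48 h call was not kept under TPM.

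Sdha, the flavoprotein that oxidises succinate (chr13:74322254-74350280, minus strand), read 130.4, 118, 114, 133 and 148 FPKM in sham, 92 to 110.1 in PHx24 (median 99.1) and 89.4 to 114 in PHx48 (median 97.8). No PHx24 or PHx48 library reached the lowest sham library. Its log2 fold change was -0.34 (adjusted p = 0.00333) at 24 h and -0.36 (adjusted p = 0.00186) at 48 h. Sdhc, a membrane anchor, gave -0.30 (adjusted p = 0.00915) and -0.32 (adjusted p = 0.00607). Neither Sdha nor Sdhc was called lower under TPM at either time. Sdhd, the other anchor, passed the test at neither time, with -0.19 (adjusted p = 0.142) and -0.09 (adjusted p = 0.514).

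Complex I had 17 of 44 nuclear genes called lower and 1 higher at 24 h, and 20 lower and 2 higher at 48 h, with medians of -0.29 and -0.27 (0.09 at 48 h under TPM). Among the 7 core subunits, which hold the flavin and the iron-sulfur clusters, 4 were called lower at 24 h and 3 at 48 h, and the fitted value was negative for each of the 7 at both times. Ndufv1 carries the flavin that accepts electrons from NADH. It read 68.8 to 84.4 FPKM in sham, 56.2 to 67.8 in PHx24 and 53.2 to 62.1 in PHx48, and gave -0.25 (adjusted p = 0.0234) and -0.36 (adjusted p = 0.00144). Ndufs3 gave -0.43 (adjusted p = 0.00169) and -0.36 (adjusted p = 0.00664), and it shares exonic bases with Kbtbd4 on the other strand. Ndufs1, the largest core subunit, did not pass, with -0.24 and -0.16, and it shares exonic bases with Eef1b2 on the other strand.

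The 29 accessory subunits, which surround the core and carry no electrons, gave 11 called lower and 1 higher at 24 h and 15 lower at 48 h. Ndufa6 had 95, 100.3, 109, 141 and 161 FPKM in sham, 77.9 to 93.2 in PHx24 (median 88) and 57.5 to 98.3 in PHx48 (median 69.7). Each PHx24 library was below each sham library, and the PHx48 and sham ranges overlapped. Ndufa6 had a log2 fold change of -0.44 (adjusted p = 0.0283) at 24 h and -0.67 (SE 0.153, adjusted p = 0.00122) at 48 h. Ndufb9 gave -0.46 and -0.60, Ndufb5 -0.36 and -0.57, and Ndufv3 -0.47 and -0.55, each called at both times. Ndufb5 shares exonic bases with Mrpl47 on the other strand and Ndufb9 with Gm49356 on the same strand. Within the 16 libraries low in Gm28438, a set described with the mitochondrial genes, Ndufa6 gave -0.77 at 48 h (adjusted p = 0.0562).

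Ndufa8 was the accessory subunit called higher at 24 h (chr2:36036326-36049406, minus strand). Its level was 119, 116, 129.7, 122 and 158 FPKM in sham, 134 to 183 in PHx24 (median 172) and 106 to 165 in PHx48 (median 131). The ranges overlapped, and the log2 fold change was 0.37 (SE 0.125, adjusted p = 0.0234) at 24 h and 0.05 (adjusted p = 0.78) at 48 h. Without the 4 libraries with muscle or pancreas transcripts it was 0.30 (adjusted p = 0.19) at 24 h. The call was also lost without sham 1, sham 2, sham 3 or sham 4 (adjusted p 0.0567 to 0.0766).

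The 8 assembly factors of complex I, which build the complex and are not part of it, did not share a direction: 2 were called lower at 24 h, and 2 lower and 2 higher at 48 h. Ndufaf1, an early assembly factor, had 21.3, 20.1, 21.6, 26.2 and 27.9 FPKM in sham, 14 to 19.1 in PHx24 and 10.8 to 17.5 in PHx48. Each PHx24 and PHx48 library was below each sham library, and the log2 fold change was -0.47 (SE 0.109, adjusted p = 0.00147) at 24 h and -0.62 (SE 0.109, adjusted p = 6.76e-05) at 48 h. Ndufaf5 and Ndufaf7, both known to modify core subunits, were called higher at 48 h with 0.44 (adjusted p = 0.027) and 0.34 (adjusted p = 0.015). Ndufaf5 lost the call without the 4 libraries (adjusted p = 0.0597) and without any one of sham 2, sham 3, PHx48 3 or PHx48 4 (adjusted p 0.0574 to 0.109). Ndufaf7 lost it without the 4 libraries (adjusted p = 0.0837) and without sham 3 (adjusted p = 0.0502).

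A pair of assembly factors known to act together, Ndufaf3 and Ndufaf4, moved in opposite ways between 24 h and 48 h. Ndufaf4 (chr4:24898083-24905001, plus strand) had 8.24, 7.41, 8.12, 10.9 and 12 FPKM in sham, 9.9 to 11.9 in PHx24 (median 10.3) and 5.3 to 7.95 in PHx48 (median 6.34). Ndufaf3 (chr9:108565537-108567434, minus strand) had 8.2, 8.7, 9.96, 9.94 and 11.8 FPKM in sham, 5.17 to 8.02 in PHx24 (median 7.62) and 9.22 to 17.3 in PHx48 (median 10.7). For both genes the PHx24 and PHx48 ranges did not overlap, Ndufaf4 being lower and Ndufaf3 higher at 48 h. The log2 fold change from 24 h to 48 h was -0.69 (SE 0.106, adjusted p = 9.23e-05) for Ndufaf4 and 0.72 (SE 0.136, adjusted p = 0.000796) for Ndufaf3. Within the 16 libraries low in Gm28438 that of Ndufaf4 was -0.53 (adjusted p = 0.105). Against sham, Ndufaf4 gave 0.22 (adjusted p = 0.149) and -0.47 (adjusted p = 0.00222), and Ndufaf3 gave -0.41 (adjusted p = 0.0337) and 0.31 (adjusted p = 0.102). Ndufaf3 shares exonic bases with Impdh2 on the other strand, and the library kit does not mark strand. Impdh2 gave 0.76 at 24 h, 0.46 at 48 h and -0.29 between the times, each called, with a sign opposite to that of Ndufaf3 at 24 h and between the times.

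Complex III had 4 of 8 nuclear genes called lower at each time, and the fitted value was negative for each of the 8 at both times, with medians of -0.33 and -0.28 (0.09 at 48 h under TPM). Uqcrfs1, the Rieske iron-sulfur protein, read 198 to 258 FPKM in sham, 164 to 194 in PHx24 and 169 to 205 in PHx48, and gave -0.30 (adjusted p = 0.00427) and -0.24 (adjusted p = 0.0155). Uqcrc1, a core protein on the matrix side, gave -0.35 (adjusted p = 0.00558) and -0.27 (adjusted p = 0.0282). Uqcr11, a small subunit, gave -0.49 (adjusted p = 0.0189) and -0.52 (adjusted p = 0.0134). Uqcr10, the most abundant of the 8, passed at neither time, with -0.07 (adjusted p = 0.695) and -0.11 (adjusted p = 0.557).

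Complex IV had 8 of 17 tested nuclear genes called lower and 1 higher at 24 h, and 5 lower and 1 higher at 48 h. Of its 11 common subunits 6 were called lower at 24 h and 5 at 48 h, with medians of -0.33 and -0.28. Cox6c read 81.7, 76.1, 80.2, 107 and 111 FPKM in sham, 55.7 to 71.3 in PHx24 (median 60.9) and 47 to 80.8 in PHx48 (median 54.8). The sham and PHx24 ranges did not overlap and the sham and PHx48 ranges did, and the log2 fold change was -0.52 (SE 0.14, adjusted p = 0.0052) and -0.56 (SE 0.14, adjusted p = 0.00262). Within the 16 libraries low in Gm28438 the 24 h value was -0.70 (adjusted p = 0.0569). Cox4i1, the subunit through which ATP is known to act on the enzyme, gave -0.34 (adjusted p = 0.0194) and -0.38 (adjusted p = 0.00845). Exonic bases of Cox6c are shared with Vps13b and those of Cox4i1 with Emc8, both on the other strand. Cox7b gave -0.41 (adjusted p = 0.0335) and -0.61 (SE 0.15, adjusted p = 0.00224), and Ndufa4 gave -0.43 (adjusted p = 0.0106) and -0.38 (adjusted p = 0.0226). Under TPM the 48 h value of Cox7b was -0.25 (adjusted p = 0.078, limma). Cox7a2 (0.09 and 0.06), Cox6a1 (-0.28 and -0.21) and Cox8a (-0.26 and -0.09) did not pass. Cox7a2l, known as a supercomplex factor of complexes III and IV, gave -0.30 (adjusted p = 0.00612) at 24 h and -0.18 (adjusted p = 0.103) at 48 h. Whether its product acts so in these mice was not tested.

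Complex IV also has alternative isoforms, which replace common subunits in particular tissues, and one of them gave the largest called change among the 103 genes. Cox6b2, known as the testis form of subunit VIb, lies at chr7:4751792-4753094 on the minus strand. It read 0.427, 0.436, 0.682, 0.766 and 0 FPKM in sham, 0 to 1.95 in PHx24 (median 1.15) and 7.7 to 11 in PHx48 (median 7.89). Each PHx48 library lay above each sham and each PHx24 library. The PHx48_ETO libraries read 5.47, 7.81, 8.87 and 6.09 FPKM and the PHx24_ETO libraries 0.638, 0.165, 0.275 and 0.366 FPKM. The log2 fold change was 4.18 (SE 0.522, adjusted p = 9.43e-07) for PHx48 against sham and 2.80 (SE 0.405, adjusted p = 5.01e-05) for PHx48 against PHx24, and both calls held in each of the alternatives run. At 24 h against sham it was 1.38 (SE 0.516, adjusted p = 0.0391), with an adjusted p of 0.146 without the 4 libraries. That call was also lost without any one of sham 1, sham 2, sham 5 or PHx24 3 to 6 (adjusted p 0.05003 to 0.0924).

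At 48 h Cox6b2 stood far below its common counterpart per length, with a mean of 8.41 ± 1.21 FPKM beside 282 ± 53.4 FPKM for Cox6b1 (SD, n = 7). The 5 testis markers examined, Prm1, Prm2, Tnp1, Odf1 and Acrv1, were each at 0 in each group. Cox6b2 shares no exonic bases with another annotated gene. Sham 1, the library with the most muscle transcripts, had 0.427 FPKM of it.

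**Figure D2:**
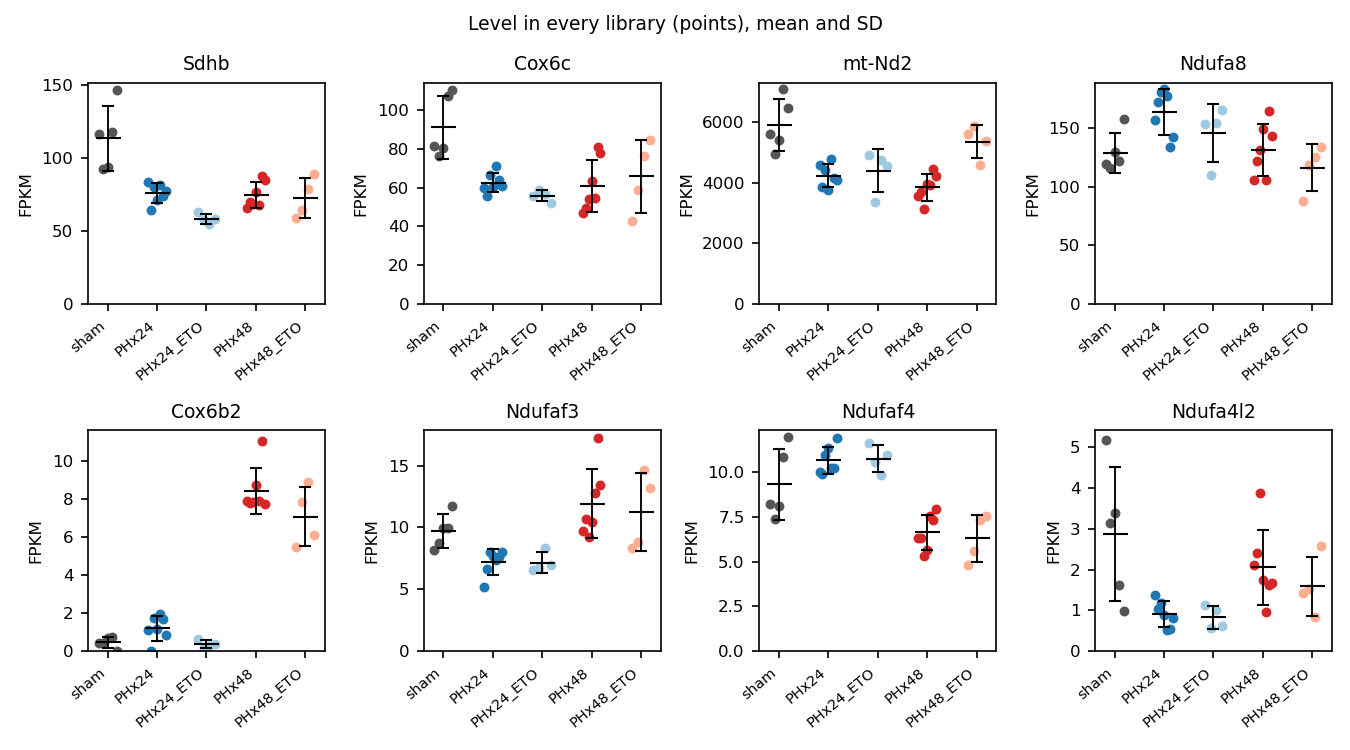
FPKM (vertical axes, linear) of 8 genes in each of the 27 libraries by group (horizontal axis), with the group mean and SD. Sdhb and mt-Nd2 are below the sham range in each PHx24 and PHx48 library, Cox6b2 reads 7.7 to 11 FPKM in PHx48 and at most 1.95 in PHx24, and Ndufaf3 and Ndufaf4 separate PHx24 from PHx48 in opposite directions.

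Ndufa4l2, the paralogue of Ndufa4 that is known to be induced by hypoxia, had 5.18, 3.15, 3.39, 1.62 and 0.975 FPKM in sham, 0.518 to 1.38 in PHx24 and 0.965 to 3.88 in PHx48. The ranges overlapped. The log2 fold change was -1.66 (SE 0.374, adjusted p = 0.00115) at 24 h, -0.48 (adjusted p = 0.317) at 48 h and 1.18 (SE 0.35, adjusted p = 0.0275) from 24 h to 48 h. Within the 16 libraries low in Gm28438 the 24 h value was -1.01 (adjusted p = 0.21) and that between the times 1.16 (adjusted p = 0.258). The call between the times was also lost without PHx24 5, PHx24 6 or PHx48 3 (adjusted p 0.0523 to 0.0776). Ndufa4l2 shares exonic bases with Shmt2 on the other strand, which gave 0.34 (adjusted p = 0.0537) and 0.24 (adjusted p = 0.169) against sham.

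Cox6a2, Cox7a1 and Cox8b, the heart and muscle forms of subunits VIa, VIIa and VIII, were high in the libraries with muscle transcripts. The summed FPKM of 12 skeletal muscle markers was 5082 in sham 1, 1921 in PHx24 1 and 610.3 in PHx48 3, and 0.406 to 88.1 in the other 24 libraries (median 0.957). In those 3 libraries Cox6a2 read 172, 89.1 and 32.8 FPKM, Cox7a1 99.8, 39.4 and 22.2 FPKM, and Cox8b 218, 94.1 and 69.1 FPKM. In the other 24 libraries Cox6a2 read 0 to 5.05 FPKM, Cox7a1 0.684 to 6.42 and Cox8b 0 to 9.36. None of the 3 genes was called in any comparison. Without them the median of the nuclear genes was -0.30 at 24 h and -0.28 at 48 h.

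**Figure D3:**
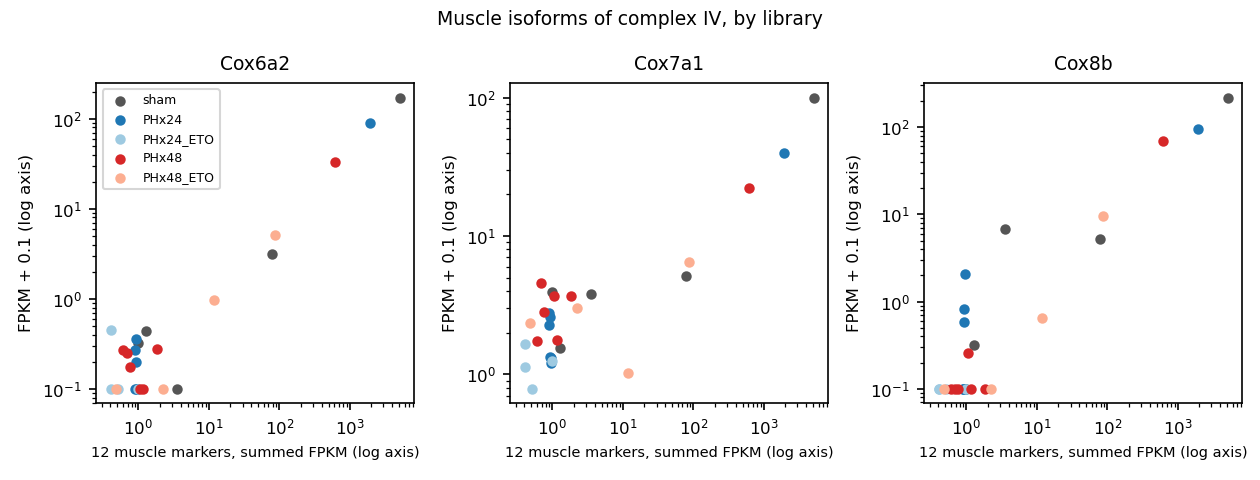
FPKM plus 0.1 (vertical axis, log scale) of Cox6a2, Cox7a1 and Cox8b against the summed FPKM of 12 skeletal muscle markers (horizontal axis, log scale) in the 27 libraries, coloured by group. The 3 libraries with the highest muscle sums have the highest values of each gene.

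Complex V had 4 of 17 tested nuclear genes called lower at 24 h and 5 at 48 h, with medians of -0.22 and -0.29 (0.06 at 48 h under TPM). In the F1 head, Atp5a1 gave -0.22 (adjusted p = 0.0441) and -0.30 (adjusted p = 0.0077), and Atp5c1, the gamma subunit that turns inside the head, gave -0.44 (adjusted p = 0.00273) and -0.44 (adjusted p = 0.00255). Atp5b, the catalytic beta subunit, did not pass, with -0.14 (adjusted p = 0.279) and -0.02 (adjusted p = 0.89). In the stalk Atp5j gave -0.45 (adjusted p = 0.008) and -0.42 (adjusted p = 0.0118), and it shares exonic bases with Gabpa on the other strand, as Atp5a1 does with Haus1. Atp5g1, Atp5g2 and Atp5g3 encode the same mature subunit c, whose ring turns in the membrane. Atp5g1 gave 0.24 and -0.03, Atp5g2 0.07 and 0.13, and Atp5g3 -0.09 and -0.05, and none passed the test. In sham Atp5g3 had the highest level of the 3 at 215 ± 24.3 FPKM, before Atp5g2 at 67.7 ± 8.51 and Atp5g1 at 36.1 ± 3.86 (SD, n = 5). The sham ranges of the 3 genes did not overlap, and 34.7% of the 100-base words of Atp5g2 also occur in another gene.

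The levels of the mitochondrial genes cannot all be read alike, because parts of the mitochondrial genome have near-identical copies on chromosome 1. Of the 100-base words of each gene, the share also found in another annotated gene was 99.9% for mt-Co3, 99.5% for mt-Co2, 99.5% for mt-Atp6, 98.5% for mt-Nd4l, 97.6% for mt-Nd3, 60.8% for mt-Nd4, 30.8% for mt-Co1 and 3.19% for mt-Nd2, and 0% for the other 5. The copies Gm28661, Gm10925, Gm28437, Gm28439 and Gm10222 had 0 differences over the bases aligned to mt-Co2, mt-Atp6, mt-Co3, mt-Nd4 and mt-Nd4l. A read from such a stretch cannot be given to one origin. The 5 genes with over 97% sharing had mean levels of 32.2 FPKM (mt-Nd4l), 83.2 FPKM (mt-Co3), 105 FPKM (mt-Nd3), 119 FPKM (mt-Atp6) and 195 FPKM (mt-Co2), beside 4631 FPKM for mt-Nd2, 6157 FPKM for mt-Nd1 and 7391 FPKM for mt-Cytb. The levels of those 5 genes are therefore uncertain.

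mt-Nd3 differs from its copy Gm28438 by 1 base over the 345 bases aligned, T3C counted from the first base of the gene. The first 90 bases of both are shown because the difference lies in them, with the differing base in capitals, as read from the GENCODE transcripts of GRCm38.
mt-Nd3, chrMT:9459-9548, plus strand: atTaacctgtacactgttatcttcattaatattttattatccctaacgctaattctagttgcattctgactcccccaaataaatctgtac
Gm28438, chr1:24613030-24613119, minus strand: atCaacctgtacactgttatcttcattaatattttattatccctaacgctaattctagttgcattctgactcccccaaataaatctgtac
The libraries fell into 2 sets by this pair. In 11 libraries (sham 1 to 3, PHx24 1 to 4 and PHx48 1 to 4) mt-Nd3 read 7.99 to 22.3 FPKM and Gm28438 112 to 324 FPKM. In the other 16 libraries mt-Nd3 read 79.9 to 340.3 FPKM and Gm28438 6.37 to 31.9 FPKM. The counts of the pair together overlapped between the sets, at 46.3 to 117 and 34.6 to 128 CPM (counts scaled to the library total). mt-Nd3 was the one gene of the 103 whose ranges separated the sets, and 11 of the 12376 genes did so (6 higher and 5 lower in the 11 libraries). The labels name no batch, and the 8 etomoxir libraries are all in the set of 16. Between groups mt-Nd3 gave -0.20 (SE 0.889, adjusted p = 0.883) at 24 h and 0.49 (SE 0.898, adjusted p = 0.705) at 48 h.

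**Figure D4:**
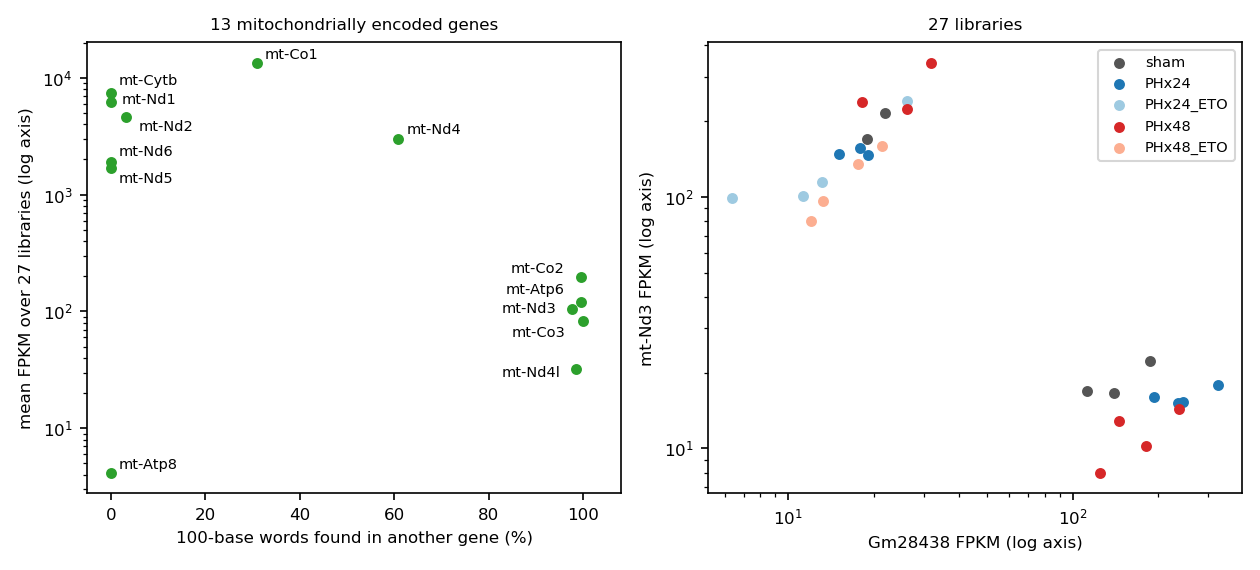
Left, mean FPKM over 27 libraries (vertical axis, log scale) of the 13 mitochondrial genes against the percentage of their 100-base words found in another gene (horizontal axis). Right, mt-Nd3 against Gm28438 in FPKM in each library by group; 11 libraries have high Gm28438 and low mt-Nd3 and 16 the reverse.

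mt-Atp8, with a mean of 4.16 FPKM the lowest of the 13, shows another limit of counting. Its 204 bases end in 43 that also belong to mt-Atp6, shown in capitals, so a read over that end lies in both genes.
mt-Atp8, chrMT:7766-7969, plus strand: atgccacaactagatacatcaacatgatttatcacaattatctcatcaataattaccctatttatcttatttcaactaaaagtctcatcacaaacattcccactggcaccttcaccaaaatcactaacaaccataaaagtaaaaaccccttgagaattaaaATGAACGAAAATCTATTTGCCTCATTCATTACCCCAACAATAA
Neither gene passed the test: mt-Atp8 gave 0.35 (adjusted p = 0.373) at 24 h and 0.69 (adjusted p = 0.0577) at 48 h, and mt-Atp6 gave 0.08 and 0.21. The word search covered annotated transcripts only. In the mitochondrial genome mt-Atp8 lies between mt-Co2 and mt-Atp6, whose copies lie close together (chr1:24614885-24615565 and chr1:24613974-24614651). The bases between those copies were not searched, so the 0% for mt-Atp8 does not show that it has no copy there.

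Among the 13 mitochondrial genes 2 were called lower at 24 h (15.8% of all genes) and 4 at 48 h (17%), and none higher (19.1% and 19.5%), with medians of -0.15 and -0.29 (0.06 and 0.09 under TPM). mt-Nd2, a proton-pumping subunit of complex I (chrMT:3914-4951), read 5596, 4939, 5396, 7092 and 6452 FPKM in sham, 3743 to 4771 in PHx24 (median 4161) and 3128 to 4449.8 in PHx48 (median 3920.2). No PHx24 or PHx48 library reached the lowest sham library. The log2 fold change was -0.46 (SE 0.116, adjusted p = 0.00333) and -0.60 (SE 0.116, adjusted p = 0.000226), with -0.25 (adjusted p = 0.0585) and -0.24 (adjusted p = 0.0529) under TPM. Within the 16 libraries low in Gm28438 it was -0.61 at 24 h (adjusted p = 0.061). mt-Nd4, another pumping subunit, gave -0.35 (SE 0.111, adjusted p = 0.0165) and -0.42 (SE 0.11, adjusted p = 0.00435), and both calls were lost without the 4 libraries (adjusted p = 0.0663 and 0.0541).

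mt-Cytb, the complex III subunit from this genome, read 7380.3 to 9229 FPKM in sham, 6394 to 8556 in PHx24 and 4735 to 8198 in PHx48. It gave -0.21 (adjusted p = 0.214) at 24 h and -0.38 (SE 0.126, adjusted p = 0.0205) at 48 h, where the call was lost without the 4 libraries (adjusted p = 0.0597). mt-Nd4l gave -0.83 (SE 0.308, adjusted p = 0.0364) at 48 h, a call lost without the 4 libraries (adjusted p = 0.0638) and without any one of sham 1, 4 or 5 or PHx48 1 to 4 (adjusted p 0.0535 to 0.113). mt-Co1, which holds the oxygen site of complex IV and had the highest mean of the 13 (13361 FPKM), did not pass, with -0.15 (adjusted p = 0.451) and -0.25 (adjusted p = 0.169). mt-Nd1 (0.13 and 0.08), mt-Nd5 (-0.10 and -0.35), mt-Nd6 (-0.02 and -0.29), mt-Co2 (0.08 and 0.05) and mt-Co3 (-0.19 and -0.36) did not pass either. mt-Nd5 (chrMT:11742-13565) and mt-Nd6 (chrMT:13552-14070) overlap only at their ends, on opposite strands, which the kit does not separate.

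Summed by complex, the FPKM of the nuclear genes had a higher mean in sham than in PHx24 in each complex. The sum was 3016 ± 453 in sham and 2480.5 ± 153 in PHx24 for complex I, 493 ± 60.3 and 389 ± 20.7 for complex II, 1669 ± 262 and 1329 ± 113 for complex III, 3366 ± 435 and 2653 ± 159 for complex IV, and 2211 ± 253 and 1911 ± 162 for complex V (SD, n = 5 and 7). In PHx48 the sums were 2407 ± 389.8, 398 ± 29.95, 1347 ± 216, 2749 ± 428 and 1908 ± 198 in the same order (SD, n = 7). No test was made on these sums, which rest on library sizes scaled to a typical gene. As a share of all counts the nuclear genes held a mean of 1.54% in sham, 1.39% in PHx24 and 1.5% in PHx48.

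From 24 h to 48 h without etomoxir, 3 of the 90 nuclear genes were called higher (6.19% of all genes) and 1 lower (5.41% of all genes). They were Cox6b2, Ndufa4l2, Ndufaf3 and Ndufaf4, described above. None of the 13 mitochondrial genes was called by edgeR, 1 of them had an unadjusted p under 0.05, and 10 nuclear genes did. So did 3194 of all 12376 genes. Each PHx48 library was above each PHx24 library in Cox6b2 and Ndufaf3 (2.88% of all genes) and below in Ndufaf4 (2.04% of all genes). The median of the nuclear genes was -0.01, beside -0.01 for all genes, and 0.14 beside 0.13 under TPM.

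The second question was whether etomoxir moved these genes at each time. At 24 h none of the 90 nuclear and 13 mitochondrial genes was called by edgeR (1.58% of all genes were called higher and 1.33% lower), and 15 nuclear genes and 1 mitochondrial gene had an unadjusted p under 0.05. Among all 12376 genes 2401 had such a p. DESeq2 called 3 of the 90 nuclear genes lower (Sdha, Sdhb and Cox6b2), where it called 393 of all 12376 genes lower. The fitted value was negative for 85 of the 90 nuclear genes, with a median of -0.18 beside 0.01 for all genes, -0.20 with library totals and -0.17 under TPM. The summed FPKM of 7 erythroid markers was 90.2 to 175 in PHx24_ETO against 200.4 to 452 in PHx24, and that of 6 Kupffer cell markers 36 to 77.7 against 78 to 146, with no marker of either list at 0 throughout a group. Their part in the result was not tested. By complex the medians were -0.18 in complex I, -0.26 in complex II, -0.10 in complex III, -0.16 in complex IV and -0.20 in complex V.

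Sdhb read 62.9, 57.4, 54.7 and 58.1 FPKM in PHx24_ETO against 64.3 to 83.2 in PHx24, and Sdha 88.7, 65.4, 88.3 and 90.8 against 92 to 110.1. In both genes each etomoxir library was below each untreated library of that time (1.41% of all genes), and no respiratory chain gene had each etomoxir library above (1.83% of all genes). The log2 fold change of Sdhb was -0.40 (SE 0.119, adjusted p = 0.0637) and that of Sdha -0.29 (SE 0.0932, adjusted p = 0.0818). With DESeq2 the adjusted p was 0.0284 for Sdhb and 0.0345 for Sdha. With the 2 sets of libraries as a term, edgeR gave -0.49 (adjusted p = 0.0255) for Sdhb and -0.35 (adjusted p = 0.0366) for Sdha. Within the 16 libraries low in Gm28438 the values were -0.42 (adjusted p = 0.223) and -0.32 (adjusted p = 0.29). Cox6b2 gave -1.73 (SE 0.571, adjusted p = 0.0907), with an adjusted p of 0.0105 in DESeq2. Cox8b was listed at 0 in each of the 4 PHx24_ETO libraries and Cox6a2 in 3 of them.

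At 48 h no gene of either genome was called by edgeR with etomoxir (0.129% of all genes were called higher and 0.0808% lower), and 2 nuclear and 2 mitochondrial genes had an unadjusted p under 0.05. Among all 12376 genes 1004 had such a p. Of the nuclear genes 46 of 90 had a positive value, and the median was 0.01, but with library totals 36 of 90 were positive with a median of -0.03, and under TPM 30 of 90 with -0.06. Sdhb gave -0.04 (adjusted p = 0.962) and Sdha -0.10 (adjusted p = 0.842). mt-Nd2 read 5601, 5865, 4591 and 5362 FPKM in PHx48_ETO, each above the PHx48 range of 3128 to 4449.8 (1.26% of all genes), and no gene of the 103 had each etomoxir library below (0.962% of all genes). The log2 fold change of mt-Nd2 was 0.48 (SE 0.123, unadjusted p = 0.000692, adjusted p = 0.159, edgeR), and DESeq2 gave an adjusted p of 0.00874. The PHx48_ETO libraries are all in the set low in Gm28438, and PHx48 1 to 4 are in the other set. With the sets as a term, or within the 16 libraries alone, edgeR called no mitochondrial gene higher in this comparison. Ndufb8, an accessory subunit of complex I that shares exonic bases with Gm20538 on the same strand, gave -0.33 (adjusted p = 0.314).

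The change in the etomoxir effect from 24 h to 48 h was tested as an interaction. edgeR called none of the 103 genes (0.0162% of all genes were higher and 0% lower), and 8 nuclear and 3 mitochondrial genes had an unadjusted p under 0.05. Among all 12376 genes 1064 had such a p. The 48 h effect minus the 24 h effect was 0.36 (SE 0.166, adjusted p = 0.553) for Sdhb and 0.44 (SE 0.177, adjusted p = 0.478) for mt-Nd2. The median over the nuclear genes was 0.20, and 78 of 90 were positive, beside -0.01 and 6097 of 12376 for all genes. The 24 h effect, which is subtracted here, was negative for 85 of the 90, so this count is not independent of that one.

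**Figure D5:**
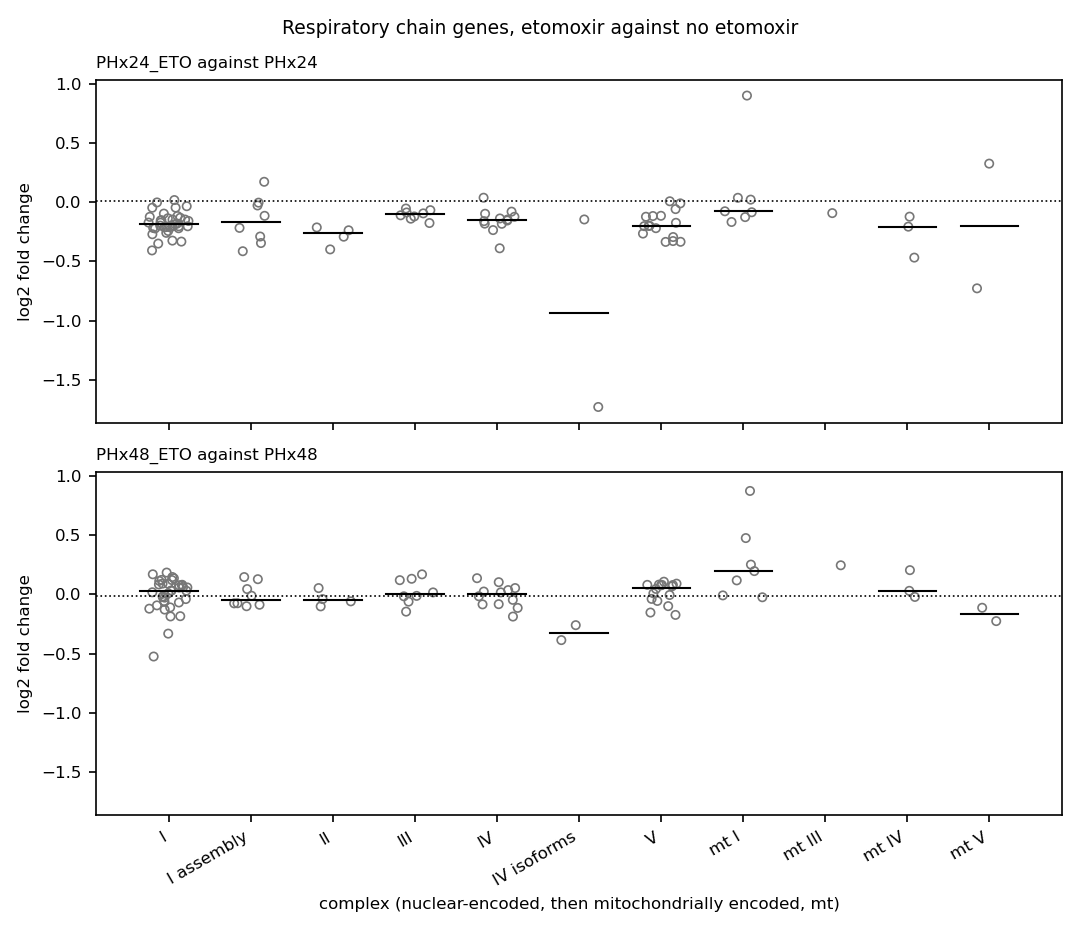
Log2 fold change (vertical axis) of each tested respiratory chain gene by complex and genome (horizontal axis), for PHx24_ETO (n = 4) against PHx24 (n = 7) and PHx48_ETO (n = 4) against PHx48 (n = 7), from edgeR. Points are open because none was called, bars are category medians and the dotted line is the median of all genes tested; Atp5s, Cox6a2, Cox7a1 and Cox8b are not drawn. Of the 90 nuclear genes 85 have a negative value at 24 h and 44 at 48 h.

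Genes that build or serve the chain but fall outside the name rule were read as lists. Beside each list below, edgeR called 19.1% of all genes higher and 15.8% lower at 24 h, and 19.5% and 17% at 48 h. At 48 h library totals called 4278 of all 12376 genes higher and 986 lower, and TPM 5687 and 655. No list was tested against these shares. Of 10 further complex I assembly factors, 1 was called higher and 2 lower at 24 h, and 2 higher and 3 lower at 48 h (4 higher and 2 lower with library totals and 6 higher and 1 lower under TPM). Dmac2 gave -0.90 and -0.85, and Tmem126b -0.40 and -0.53, called at both times. Acad9, an acyl-CoA dehydrogenase that also assembles complex I, gave 0.44 (adjusted p = 0.000407) at 48 h. Of 17 complex IV assembly factors, 4 were called higher and 1 lower at 24 h, and 3 higher and 3 lower at 48 h (5 higher and 0 lower with library totals and 9 higher and 0 lower under TPM). Coa3 gave 0.40 and 0.57, and Cox15, a heme A synthase, 0.32 and 0.32. Surf1 gave -0.29 and -0.36, calls not kept with library totals or under TPM. Of 5 complex III factors 1 was called lower at each time, Uqcc3 with -0.47 and -0.70. Of 4 ATP synthase factors 1 was called lower at each time, Fmc1 with -0.57 and -0.61. Of 4 complex II factors none was called at 24 h and Sdhaf2 was called lower at 48 h, with -0.27 (0.08 under TPM). At 48 h under TPM the complex III factors gave 2 higher and 1 lower, the ATP synthase factors 3 higher and 0 lower and the complex II factors 2 higher and 0 lower.

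Coenzyme Q carries electrons from complexes I and II to complex III. Of 13 genes of its synthesis and handling, 3 were called higher and 3 lower at each time (at 48 h 5 higher and 2 lower with library totals and 8 higher and 2 lower under TPM). Pdss1, which makes the side chain, gave 1.03 and 0.92, and Coq7, a hydroxylase of the ring, gave 0.52 and 0.50. Coq8a, a kinase-like protein of the synthesis complex, gave -1.45 and -1.004, and Coq10a, a coenzyme Q binding protein, gave -1.10 and -1.40. These 4 genes were called in the same direction with library totals and under TPM. Of the 2 tested genes for cytochrome c and cytochrome c1 and the 8 tested carriers of ADP, phosphate and protons, none was called at either time by edgeR. At 48 h 1 and 1 were called higher with library totals and 2 and 6 under TPM.

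Of 14 genes that replicate and transcribe mitochondrial DNA, 3 were called higher and 2 lower at 24 h, and 1 higher and 6 lower at 48 h (4 higher and 1 lower with library totals and 5 higher and 1 lower under TPM). Tfam, which packs the DNA and starts transcription, gave 0.24 (adjusted p = 0.0389) at 24 h. Mgme1, a nuclease of replication, gave 0.63 and 0.75. Mterf4 gave -0.52 and -0.59, and Polg2, the accessory subunit of the polymerase, -0.54 and -0.46. Of 13 genes for the stability and processing of mitochondrial mRNA, 2 were called higher at 24 h, and 1 higher and 3 lower at 48 h (5 higher and 2 lower with library totals and 8 higher and 0 lower under TPM). Lrpprc, which stabilises these mRNAs, gave -0.28 (adjusted p = 0.0133) at 48 h (0.07 under TPM) and -0.35 (adjusted p = 0.00476) from 24 h to 48 h.

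Of 7 regulators of nuclear respiratory genes, 1 was called higher and 2 lower at 24 h, and 2 higher and 2 lower at 48 h (3 higher and 0 lower with library totals and 3 higher and 0 lower under TPM). Pprc1, a coactivator of the PGC-1 family, gave 0.95 and 0.83, and Nrf1 0.43 at 48 h. Gabpa, the DNA-binding subunit of an ETS factor, gave -0.63 and -0.45, and Yy1 -0.53 and -0.36, and their 48 h calls were not kept with library totals or under TPM. With etomoxir at 24 h, 2 genes of these lists were called, Coa3 with -0.35 (adjusted p = 0.0451) and Coq8b with 1.69 (adjusted p = 0.00915). Among all genes 1.58% were called higher and 1.33% lower in that comparison.

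Nuclear respiratory genes are known for promoter sites of NRF1, ETS factors and YY1, and the promoters of the members were searched for them. RefSeq promoters of GRCm38.p6, 250 bases before to 50 after the start, were found for 74 of the 94 nuclear genes. The letters searched, on both strands, were GCGC, then any base, then TGCGC for NRF1, CCGGAAG for ETS and AANATGGCG for YY1, and 0 of the 74 promoters held overlapping matches of different motifs. NRF1 letters were in 18 of 74 (24.3%) against 4.78% of all 27025 promoters, ETS letters in 17 (23%) against 9.12%, YY1 letters in 9 (12.2%) against 2.51%, and any of these in 38 (51.4%) against 14.7%. The Sdha promoter is shown for its 3 NRF1 matches, in capitals, which begin 98, 55 and 10 bases before the start. The Cox6b2 promoter is shown because that gene had the largest called change, and it held none of the letters. Both are the 250 bases before the start, on the minus strand.
Sdha promoter, chr13:74350241-74350490: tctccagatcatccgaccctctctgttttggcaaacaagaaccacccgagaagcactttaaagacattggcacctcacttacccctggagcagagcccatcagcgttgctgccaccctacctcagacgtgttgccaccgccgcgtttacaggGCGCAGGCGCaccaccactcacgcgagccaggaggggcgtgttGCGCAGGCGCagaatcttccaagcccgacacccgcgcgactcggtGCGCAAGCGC
Cox6b2 promoter, chr7:4753095-4753344: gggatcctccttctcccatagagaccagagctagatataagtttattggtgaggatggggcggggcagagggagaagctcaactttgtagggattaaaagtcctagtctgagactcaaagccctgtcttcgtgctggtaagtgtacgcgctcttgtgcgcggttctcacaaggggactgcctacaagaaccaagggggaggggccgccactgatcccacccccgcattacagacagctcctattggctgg
Sdhb held 1 ETS match, 6 bases after the start, and Sdhd an NRF1 match and an ETS match, which begin 79 and 46 bases before it. Sdha and Sdhb were called lower at both times and Sdhd at neither.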

How the data were processed

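Per the labels' protocols, poly(A) RNA went into NEBNext Ultra libraries, a kit that does not mark strand. The authors deposited gene counts and FPKM for 27 libraries in 1 table. Per the submitters' processing notes, CASAVA 1.8, fastp, HISAT2 2.0.5, featureCounts 1.5.0-p3, DESeq2 1.20.0 and build GRCm38 (mm10) were used. The deposited FPKM rest on library sizes that differ from the count totals, as FPKM scaled to a typical gene would.

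Counts were tested with edgeR 4.0.16 in R 4.3.3 (quasi-likelihood, TMM scaling), with the 5 groups in 1 fit, on the 12376 genes with at least 1 FPKM in at least 4 libraries. Adjusted p-values are Benjamini-Hochberg values, called under 0.05, and each such p is from edgeR unless another tool is named. Tables were read with pandas 2.3.3. The test was checked on simulated counts. The alternatives were DESeq2 1.42.0, no filter, library totals, limma 3.58.1 on log2(FPKM + 1), the replicate number as a block, the compared groups alone, leaving out the 4 libraries with muscle or pancreas transcripts, and leaving out each library. After seeing the data 4 more were added: the 2 library sets as a term, each set alone (50 FPKM of Gm28438 divides them), and limma on log2(TPM + 1).

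Members and gene lists were chosen with earlier results of these data known. The naming rule took the 13 mitochondrial genes, the most abundant nuclear gene per complex, the 3 largest called rises and falls per comparison, isoform pairs, and called genes of the lists. Other genes named were chosen after their values were seen.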

Additional observations from a re-analysis of the deposited data

Results flagged for a closer look

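Within groups of 4 to 7 libraries, 21 of 209 tests over 42 genes had 1 library standing apart from the rest, where chance alone gives about 1 in 20. Cox6a2 read 171.6 FPKM in sham 1 (others 0 to 3.04), 89.08 in PHx24 1 (0 to 0.255) and 32.83 in PHx48 3 (0 to 0.175). Cox7a1 read 99.84 FPKM in sham 1 (others 1.44 to 5.03), 39.4 in PHx24 1 (1.11 to 2.65) and 22.15 in PHx48 3 (1.65 to 4.43). Cox8b read 217.8 FPKM in sham 1 (others 0 to 6.68), 94.06 in PHx24 1 (0 to 1.97) and 69.14 in PHx48 3 (0 to 0.155). In PHx48_ETO 4, where the muscle marker sum was 88.1 FPKM, Cox6a2 read 5.05 FPKM (others 0 to 0.863) and Cox8b 9.365 FPKM (others 0 to 0.543). Cox6a2 read 0.3464 FPKM in PHx24_ETO 1 and 0 in the other 3. Cox4i2, the lung and hypoxia form of subunit IV, read 1.614 FPKM in PHx24 1 (others 0 to 0.576).

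Among mitochondrial genes with near-identical nuclear copies, mt-Nd3 read 239.6 FPKM in PHx24_ETO 1 (others 99.1 to 114), mt-Co2 225.5 in sham 1 (178 to 189) and mt-Co3 157.4 in PHx24 5 (58.4 to 90.8). mt-Atp6 read 310.5 FPKM in PHx24 7 (others 59.9 to 113), 115.6 in PHx24_ETO 1 (60.8 to 67.4) and 184.0 in PHx48_ETO 2 (92.2 to 98). In the other direction Sdhd read 111.2 FPKM in PHx24_ETO 2 (others 151 to 154). Cox6b2 read 11.05 FPKM in PHx48 6, above the other 6 libraries of its group (7.7 to 8.74).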

How the results depend on the processing

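Nuclear genes called lower at 24 h (36) were 19 without a filter, 18 with library totals, 13 within the 16 libraries low in Gm28438 and 5 under TPM. Among all genes 2011 (of 30492), 1255, 631 and 896 were called lower in these settings, and 1960 in the reported test. Nuclear genes called lower at 48 h (37) were 9 with library totals, 8 within the 16 libraries and 2 under TPM. Among all genes 986, 686 and 655 were called lower at 48 h in these settings, and 2103 in the reported test. Nuclear genes called higher at 24 h (2) were 1 without a filter, with the replicate block or with the compared groups alone, 0 without the 4 libraries or within the 16, and 8 under TPM. Among all genes 2281, 2381, 2219, 1820, 890 and 3797 were called higher in the same order, and 2366 in the reported test. Nuclear genes called higher at 48 h (3) were 6 with library totals, 19 under TPM, and 1 without the 4 libraries, within the 16 or within the 11. Among all genes 4278, 5687, 1794, 996 and 2045 were called higher in the same order, and 2410 in the reported test. From 24 h to 48 h the nuclear genes called higher (3) were 5 with DESeq2, 6 with library totals and 9 under TPM (969, 1453 and 1691 of all genes, beside 766 in the reported test). The 1 nuclear gene called lower became 0 within the 16 and 4 within the 11 (46 and 604 of all genes, beside 669 in the reported test).

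Mitochondrial genes called lower at 24 h (2) were 1 without a filter, with library totals or without the 4 libraries, and 0 within the 16 or under TPM. Those called lower at 48 h (4) were 2 without a filter or the 4 libraries, 1 with library totals or within the 16, and 0 under TPM. Among all genes 1615 were called lower at 24 h and 1711 at 48 h without the 4 libraries, and 2137 at 48 h without a filter. Mitochondrial genes called higher, 0 in the reported test, were 1 at 24 h under TPM, and at 48 h 1 with library totals, 1 with limma on FPKM (2322 of all genes) and 3 under TPM. From 24 h to 48 h 1 mitochondrial gene was called lower with the compared groups alone, as were 886 of all genes.

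With etomoxir at 24 h nuclear genes called lower, 0 in the reported test, were 3 with DESeq2 or the library sets as a term, 1 with library totals and 2 under TPM. Among all 12376 genes 393, 302, 166 and 269 were called lower in these settings. Mitochondrial genes called higher with etomoxir were 1 at 24 h and 1 at 48 h with the replicate block, and 1 at 48 h with DESeq2. Among all genes 150, 32 and 33 were called higher in the same order. Over all genes, TPM moved the median from 0.01 to 0.32 at 48 h and the number called higher from 2410 to 5687.

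Leaving out each of the 27 libraries gave 0 to 2 nuclear genes higher and 23 (without sham 5) to 49 lower at 24 h, with 2 mitochondrial genes lower each time. At 48 h it gave 1 (without sham 3) to 3 nuclear genes higher, 26 to 43 lower, 0 to 1 mitochondrial genes higher (1 without sham 1, PHx48 2 or PHx48_ETO 4) and 3 to 6 lower. From 24 h to 48 h it gave 2 to 5 higher (5 without PHx24 1) and 1 to 2 lower (2 without PHx24 6, PHx24_ETO 2 or PHx48 6). With etomoxir at 24 h it gave 0 to 6 nuclear genes lower (1 without sham 5, 2 without PHx24 2, 6 without PHx24_ETO 1). The counts over all genes are not given for these fits, so a shift shared by all genes cannot be told apart here. For the 21 genes and comparisons named by size of change, 725 of 798 values passed in the same direction, 73 did not pass and 0 reversed; where the cause of a change is not given by fewer libraries or genes, it was not tested.

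The replicate numbers do not pair the libraries: of 45 same-numbered pairs 13 correlated above 0.1 (median 0.0216), and 6 of 27 libraries correlated best with their own number. Depth was close to even. Errors were wide for genes near 1 FPKM such as Cox6b2 in sham, and wider for mt-Nd3. The FPKM assigned to mt-Nd3 separated the library sets, and that of its copy Gm28438 did so in reverse. The counts of the pair together overlapped between the sets, so a difference in the level of mt-Nd3 was not shown.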

Other observations

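The 2 mitochondrial ribosomal RNA genes are not protein-coding and so lie outside the rule, and they were chosen after their values were seen. mt-Rnr1, the small subunit RNA, had 551 ± 70.7 FPKM in sham, 298 ± 78 in PHx24 and 232 ± 55.6 in PHx48 (SD, n = 5, 7 and 7), with log2 fold changes of -0.87 (adjusted p = 0.0005) and -1.24 (adjusted p = 7.2e-06) in edgeR. mt-Rnr2, the large subunit RNA, had 347 ± 41.6, 126 ± 33 and 92.1 ± 17 FPKM (SD), with -1.44 (adjusted p = 3.2e-05) and -1.90 (adjusted p = 7.46e-07). With etomoxir mt-Rnr2 had 219.7 ± 149.7 FPKM at 24 h and 119 ± 13.4 at 48 h (SD, n = 4), and the 24 h difference was 0.78 (adjusted p = 0.0781). Both changes after resection are larger than that of any of the 13 mitochondrial mRNAs called. The libraries were made from poly(A) RNA, which captures these RNAs in part, and the share captured in each library was not tested.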
